A study of Mus musculus with 8 samples.

Results

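T cells and natural killer (NK) cells made up 222 of the 12564 barcodes recovered from the tibiae of adult mice, with 168 barcodes chosen as T cells and 54 as NK cells. Both were chosen on measured values, as unique molecular identifier (UMI) counts, each UMI standing for 1 captured RNA molecule. Eligible barcodes had at least 700 detected genes, at most 20% of UMIs from mitochondrial genes, at most 1 Cd79a UMI and fewer than 100 S100a8 UMIs per 10000. The gene and mitochondrial limits left 9705 cells, and the limits on Cd79a (a B-cell receptor chain) and S100a8 (a neutrophil protein) left 3377. A cell was taken as a T cell with at least 2 UMIs of Cd3d, Cd3e and Cd3g together. A cell was taken as an NK cell with 0 UMIs of these 3 genes, at least 1 UMI of the receptors Ncr1 or Klrb1c and at least 2 UMIs of Nkg7. T cells were 1.73% of the 9705 cells (95% interval 1.48 to 2.01) and NK cells 0.556% (0.418 to 0.725). NK cells were 24.3% of the 222 cells (18.8 to 30.5). Intervals on shares are exact binomial ones, and all intervals given here cover counting error only.

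All cells came from untreated mice aged 8 weeks (P56) that shared 1 genotype. Every animal was MMP14 F/+, with 1 floxed Mmp14 allele, and carried COL10A1cre, a Cre that acts in hypertrophic chondrocytes. Each also carried R26-tdT, a Cre-dependent tdTomato reporter, and Col1a1-2.3-GFP, a transgene driven by a Col1a1 promoter fragment that marks osteoblasts. Cells of 3 mice were pooled, and the 8 labelled samples share 1 matrix of cells whose barcodes are not assigned to a sample or animal, so that there is 1 sample and no test between animals. The labels give the cell type as chondro-osteogenic, the first suspensions of the diced bone, which held most blood cells, were discarded, and the methods describe no sort but a suspension enriched in tdTomato+ cells. The T and NK cells described here are therefore those of the third digestion, and their shares are shares of that digest and not of marrow.

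T cells recognise antigen through a receptor made of a variable alpha-beta or gamma-delta pair and the invariant CD3 chains, which carry the signal into the cell. Alpha-beta receptors mostly read peptides held by other cells, and gamma-delta receptors mostly do not. NK cells lack this receptor and read target cells through germline-encoded receptors, many of them lectin-like proteins encoded side by side in the NK gene complex, that signal through small adaptors with or without activating motifs. Both kinds of cell kill with perforin and granzymes and secrete chemokines and interferon gamma. Bone marrow is the main site where NK cells develop and mature, whereas conventional T cells mature in the thymus and return to marrow as naive or memory cells.

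The promoters of 2 CD3 genes that chose the T cells, of Klrb1c that chose the NK cells and of Gzma, the gene higher in NK cells whose interval lay furthest from an equal level, are shown because the report turns on these genes. Each run is the 250 bases before the RefSeq start on GRCm38.p6, 5′ to 3′ on the strand of the gene, with capitals marking the letters of 4 searched motifs.
Cd3d (chr9:44981536-44981785, + strand): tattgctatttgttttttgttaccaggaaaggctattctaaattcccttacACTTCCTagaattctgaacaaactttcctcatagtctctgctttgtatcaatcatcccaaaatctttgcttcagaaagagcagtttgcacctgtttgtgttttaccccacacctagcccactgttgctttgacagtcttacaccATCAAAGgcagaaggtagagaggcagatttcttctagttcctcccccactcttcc
Cd3e (chr9:45009612-45009861, - strand): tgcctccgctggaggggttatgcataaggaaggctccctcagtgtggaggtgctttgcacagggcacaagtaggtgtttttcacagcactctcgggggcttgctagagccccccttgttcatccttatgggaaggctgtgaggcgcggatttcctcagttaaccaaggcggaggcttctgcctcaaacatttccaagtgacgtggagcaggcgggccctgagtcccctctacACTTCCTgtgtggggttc
Klrb1c (chr6:128788642-128788891, - strand): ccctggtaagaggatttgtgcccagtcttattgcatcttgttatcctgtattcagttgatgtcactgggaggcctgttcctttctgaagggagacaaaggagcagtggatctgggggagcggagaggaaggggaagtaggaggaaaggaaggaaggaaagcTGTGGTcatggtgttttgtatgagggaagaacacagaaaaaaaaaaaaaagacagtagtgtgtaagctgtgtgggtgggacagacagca
Gzma (chr13:113100982-113101231, - strand): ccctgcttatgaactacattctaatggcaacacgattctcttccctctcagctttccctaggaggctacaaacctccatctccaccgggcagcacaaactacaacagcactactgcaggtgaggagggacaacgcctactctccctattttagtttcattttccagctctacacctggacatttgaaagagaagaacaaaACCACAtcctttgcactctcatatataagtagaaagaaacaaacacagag

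The motifs searched on both strands were TGTGGT (Runx), GGTGTGA (T-box), CTTTGAT (TCF/LEF) and AGGAAGT (Ets), named for factor families with known roles in T and NK cells. Cd3d held the TCF/LEF letters on the opposite strand 55 bases before its start and the Ets letters on the opposite strand 199 bases before it, and Cd3e held the Ets letters on the opposite strand 18 bases before its start. Klrb1c held the Runx letters on the given strand 89 bases before its start, and Gzma held them on the opposite strand 50 bases before its start. Of 27025 promoters of the same length, 14.2% held the Runx letters, 3.31% the T-box letters, 3.23% the TCF/LEF letters and 7.80% the Ets letters. The RefSeq starts of Cd3e and Klrb1c lie inside the longer gene spans of the GENCODE annotation. A match is a description of these letters and not of bound protein.

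The median depth of T and NK cells was close, and their upper ranges differed. T cells held 1030110 UMIs in all, with a median of 4771 UMIs per cell (range 1902 to 43874) and 1521.5 detected genes. NK cells held 356107 UMIs, with a median of 5332 (1594 to 17549) and 1652.5 genes, and the median share of mitochondrial UMIs was 3.88% in T and 2.84% in NK cells. Levels are given as CPM, the UMIs of a gene in every 1000000 UMIs of the class. B-lineage and granulocytic cells of the same matrix, with 0 UMIs of Cd3d, Cd3e and Cd3g, served as classes that should lack T and NK transcripts. The 3351 B-lineage cells held 2 or more Cd79a UMIs, with a median of 3012 UMIs per cell. The 2639 granulocytic cells held 100 or more S100a8 UMIs per 10000, with a median of 5702 UMIs per cell. Because cells with CD3 RNA were left out of both, low shares of T-cell genes there are no independent background level. Over all 12564 barcodes the matrix held 91463572 UMIs, and no barcode was repeated.

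Of the T and NK cells, 18 were set apart because they also carried skeletal, monocyte or erythroid RNA at 100 or more UMIs per 10000. In 7 T cells the skeletal markers (Col1a1, Col1a2, Col2a1, Sparc, Cxcl12 and Acan) reached 105 to 2242 UMIs per 10000, where the next T cell held 21.99 and the highest NK cell 6.15. The monocyte markers reached 164 to 204 per 10000 in 2 T cells, and erythroid markers, chiefly globins, reached 110 to 6611 in 8 T cells and 3715 to 6426 in 3 NK cells. These overlap in 2 T cells, which gives 15 T and 3 NK cells with a median of 13849.5 UMIs, of which a doublet caller marked 3. Erythroid markers passed this limit in 4.76% of T, 5.56% of NK, 4.86% of B-lineage and 5.42% of granulocytic cells. Counts and calls that changed without these cells are given both ways, an alternative chosen after seeing the data that leaves 153 T and 51 NK cells. Other lists were not used to set cells apart, although 1 T cell reached 191 per 10000 for B-lineage markers and 1 reached 157 for neutrophil markers, so that the 18 are not all cells with RNA of other types.

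The values that chose the cells are given as a description only. The 3 CD3 genes summed to a median of 6 UMIs per T cell (range 2 to 40), with Cd3d found in 89.9% of T cells, Cd3g in 84.5% and Cd3e in 66.1%. The receptors Ncr1 (NKp46) and Klrb1c (NK1.1) summed to a median of 2 UMIs per NK cell (1 to 5), and Nkg7, a protein of cytotoxic granules, had a median of 10 (2 to 27). Klrb1c was found in 43 of the 54 NK cells and Ncr1 in 27. Nkg7 is not particular to NK cells, since 61.9% of T cells held it. Just inside the T threshold were 15 cells with 2 CD3 UMIs, and just outside were 25 cells with 1, of which 3 met the other NK criteria. Just inside the NK thresholds were 24 cells with 1 receptor UMI and 2 cells with 2 Nkg7 UMIs, and just outside were 1 cell with a single Nkg7 UMI and 5 with none. In the 100 genes above the floor of 700 lay 1 T cell and 0 NK cells, and in the 100 genes below it 2 and 1 cells met the other criteria.

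Outside the NK gate, 226 cells held at least 2 Nkg7 UMIs with 0 CD3 and 0 receptor UMIs. Mpo, the myeloperoxidase of granulocyte precursors, was found in 170 of these 226 cells against 2 of 54 NK cells. Klrd1 or Klre1, lectin receptors that the gate did not use, were found in 35 of the 226 cells (15.5%, 11.0 to 20.9) and in 50 of the 54 NK cells (92.6%, 82.1 to 97.9). Most cells that the receptor criterion left out thus held Mpo, and a minority held these NK lectin receptors without a captured Ncr1 or Klrb1c.

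**Figure D1:**
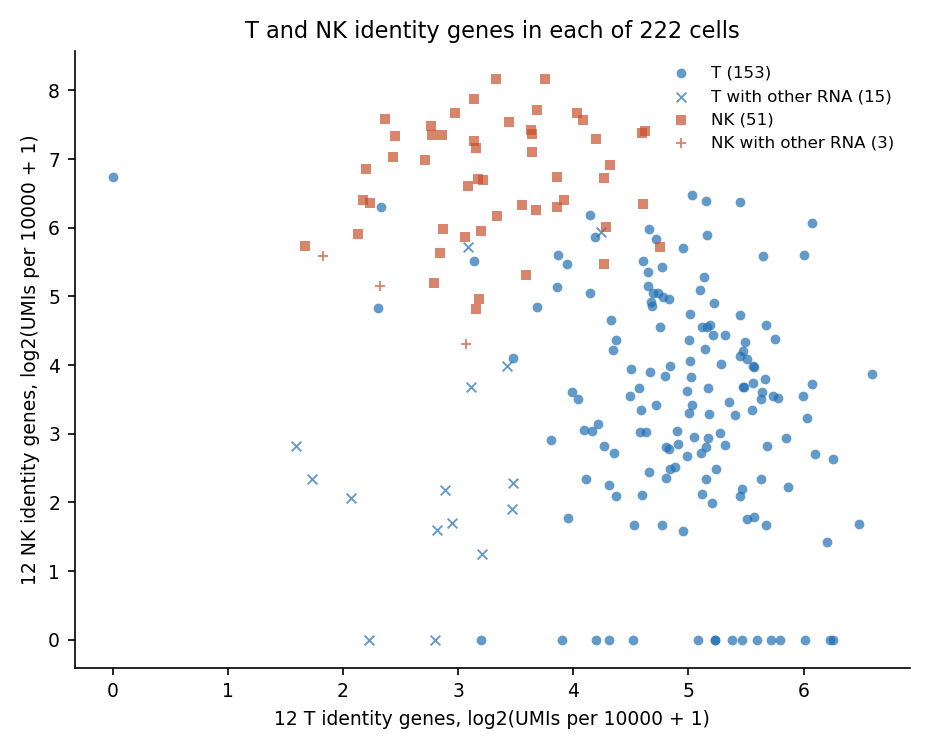
Summed level of 12 T identity genes (horizontal axis) against 12 NK identity genes (vertical axis) in each of the 222 cells, both as log2 of UMIs per 10000 plus 1. None of the 24 genes was used to choose cells, and the 54 NK cells (squares, and plus signs for the 3 with other RNA) sit in the upper left while the 168 T cells (circles, and crosses for the 15 with other RNA) spread from the lower right upwards, some reaching the level of NK cells.

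Genes that the gates did not use separated the cells from B-lineage and granulocytic cells, themselves chosen without CD3 UMIs, and, in part, from each other. At least 3 of 12 T identity genes (among them receptor constant regions, Cd247, Lat, Lck, Cd28, Cd5, Cd6, Bcl11b and Tcf7) were found in 94.6% of T cells and 66.7% of NK cells, against 0.567% of B-lineage and 0.152% of granulocytic cells. At least 3 of 12 NK identity genes (among them Klrd1, Eomes, Il2rb, Gzma, Prf1, Fcer1g and Tyrobp) were found in 100% of NK cells and 51.8% of T cells, against 0.955% of B-lineage and 2.77% of granulocytic cells. The plot of both scores shows the overlap, since the T identity score ranged from 0 to 95.4 per 10000 in T cells (median 30.7) and from 2.17 to 26.0 in NK cells (median 8.12). Exactly 1 T cell held none of the 12 T identity genes. It held 2 CD3 UMIs, and its NK identity score of 106.2 per 10000 was the highest of all T cells. The median NK identity score of NK cells was 104.7. The markers thus went with the labels of most cells but not with that of this T cell, and some lymphocyte transcripts were shared between the classes.

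The comparison of T with NK cells asks which transcripts differ between cells of the same digest. A gene was called where the exact 95% interval of its CPM ratio lay wholly beyond 2-fold, among genes that reached 20 UMIs over T and NK cells and leaving out the genes of the gates. Over all 222 cells, 173 of 5964 genes were higher in T cells (2.9%) and 82 were higher in NK cells (1.37%), and the median log2 ratio of T to NK was -0.065. Without the 18 cells, 57 of 5185 genes were higher in T cells (1.1%), of which 51 were among the 173, and 90 were higher in NK cells (1.74%), of which 65 were among the 82. The larger number of T-high genes thus rested on the T cells with skeletal and monocyte RNA, and the collagen genes, Sparc and Lyz2 were no longer called without them. With 1 pooled sample, no p-value was computed.

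**Figure D2:**
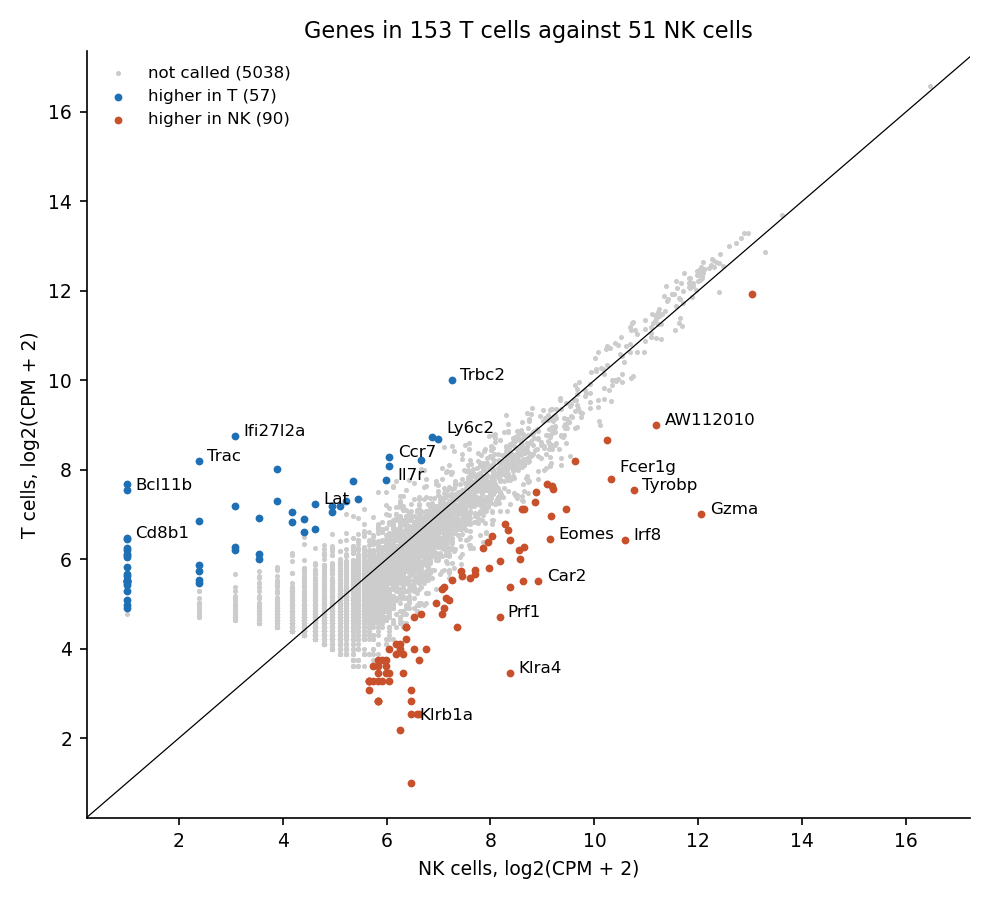
Level of each of 5185 genes in 153 T cells (vertical axis) and 51 NK cells (horizontal axis), the 18 cells with other RNA left out, as log2(CPM + 2), with the line of equal levels. The 57 genes higher in T cells (blue) include Trbc2, Trac, Bcl11b and Ifi27l2a, the 90 higher in NK cells (orange) include Gzma, Tyrobp, Irf8 and Car2, and the other genes (grey) were not called.

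The constant regions of the T-cell receptor divided by chain. Trac, the alpha constant region, gave 240 UMIs in T cells and 1 in NK cells, 233 CPM (95% interval 204 to 264) against 2.81 (0.0711 to 15.6), a log2 ratio of 6.37 (3.88 to 11.7). It was found in 94 of the 168 T cells, 1.85% of NK cells, 0.328% of B-lineage and 0.152% of granulocytic cells, and after thinning every cell to 1500 UMIs in 29.2% of T and 0.853% of NK cells. Trbc2, a beta constant region, was 814 CPM (759 to 870.5) in T and 132 CPM (97.0 to 175) in NK cells, a log2 ratio of 2.62 (2.20 to 3.08). Trbc1, the other beta constant region, did not pass the 2-fold limit, at 477 CPM (435 to 521) in T and 300.5 CPM (246 to 363) in NK cells. Beta transcripts were therefore common in NK cells, of which 1 held an alpha transcript. A Trbc1 UMI was found in 72.2% of NK cells (58.4 to 83.5) and 55.4% of T cells (47.5 to 63.0), and after thinning in 35.0% and 37.0%, against 0.448% of B-lineage and 0.265% of granulocytic cells. Trbc1 and Trbc2 are near-identical copies, so that the split of reads between them is uncertain, and both lie on chromosome 6 (Trbc1 at 41538218 to 41539881 and Trbc2 at 41546730 to 41548352 on mm10).

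The remaining receptor chains varied. Trdc, the delta constant region, was 130 CPM (109 to 154) in T and 30.9 CPM (15.4 to 55.3) in NK cells, a log2 ratio of 2.07 (1.19 to 3.11). Cd247, the zeta chain that NK receptors also use for signalling, was 71.8 CPM (56.4 to 90.2) in T and 81.4 CPM (54.5 to 117) in NK cells and was not called. Tcrg-C2, a gamma constant region, had 22 UMIs in T and 0 in NK cells and was not called, with an exact lower bound of the log2 ratio of 0.92. For called genes at 0 in NK cells the fold is given against a floor of 3 counts over the class, beside the exact lower bound of the log2 ratio, which is the lower of the 2 limits. In all, 3 of 6 compared receptor genes were called higher in T cells and 0 in NK cells, with a median log2 ratio of 2.35.

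Of the genes that carry the antigen receptor signal, proximal kinases were shared and adaptors and coreceptors were not. The kinase Lck was 145 CPM (122 to 170) in T and 126 CPM (92.2 to 169) in NK cells, and Zap70, which binds the phosphorylated CD3 and zeta chains, was 56.3 (42.7 to 72.8) and 64.6 (40.9 to 96.9). The scaffold Lat was higher in T cells, at 121 CPM (101 to 145) against 19.7 (7.90 to 40.5), a log2 ratio of 2.63 (1.54 to 3.97). Cd5 and Cd6, surface glycoproteins that dampen receptor signalling, had 55 and 50 UMIs in T cells and 0 in NK cells, 6.34-fold and 5.76-fold the floor (exact lower bounds log2 2.32 and 2.17). The inhibitory receptor Pdcd1 (PD-1) had 35 UMIs in T and 0 in NK cells, 4.03-fold the floor (exact lower bound log2 1.64), and was found in 12.5% of T cells. Of 18 compared genes of receptor signalling and costimulation, 5 were called higher in T cells, among them Lat, Cd5, Cd6 and Pdcd1, and 0 in NK cells (median log2 ratio 1.31). The adaptor Grap2 made 6 without the 18 cells, at 132 CPM in T and 29.0 CPM in NK cells, a log2 ratio of 2.18 (1.20 to 3.35). Cd28, the main costimulatory receptor, was 169 CPM in T and 73.0 CPM in NK cells, and its interval (log2 0.61 to 1.86) did not clear 2-fold.

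The CD8 coreceptor chains were found in T cells and in no NK cell. Cd8a had 61 UMIs and Cd8b1 69 in T cells, 7.03-fold and 7.95-fold the floor in NK cells (exact lower bounds log2 2.47 and 2.65). Cd4 had 23 UMIs in T and 0 in NK cells, with an exact lower bound of log2 0.99, and passed the limit only without the 18 cells (1.12). A count of 0 in 54 NK cells allows a share of NK cells with a UMI of up to 5.56% by the floor of 3 counts and 6.603% by the exact interval.

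Among transcription factors, Bcl11b marked T cells and Eomes, Id2 and Irf8 were higher in NK cells. Bcl11b, which secures T-lineage commitment, had 151 UMIs in T cells (147 CPM, 124 to 172) and 0 in NK cells, 17.4-fold the floor (exact lower bound log2 3.81), and was found in 47.0% of T cells (20.9% after thinning), 0.0298% of B-lineage and 0% of granulocytic cells. It was the only one of 10 compared T-cell factors that was called (median log2 ratio 0.31). Tcf7 and Lef1, which act downstream of Wnt signals and in T-cell development, were 132 and 162 CPM in T and 92.7 and 59.0 CPM in NK cells, with intervals that did not clear 2-fold. Gata3 was 50.5 CPM (37.7 to 66.2) in T and 109.5 CPM (77.9 to 149.7) in NK cells, and Runx3 was 167 CPM (143 to 194) and 368 CPM (308 to 436.5), both with the higher value in NK cells and neither called. Eomes, a T-box factor of NK maturation, was 67.0 CPM (52.1 to 84.8) in T and 508 CPM (437 to 588) in NK cells, a log2 ratio of -2.92 (-3.35 to -2.52). Tbx21 (T-bet), the related factor, was 27.2 CPM (18.1 to 39.3) and 64.6 CPM (40.9 to 96.9) and was not called. Id2 was 256 CPM in T and 719 CPM in NK cells, a log2 ratio of -1.49 (-1.74 to -1.23), which fell short of the limit without the 18 cells at -1.23.

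Irf8, an interferon regulatory factor best known from dendritic cells and monocytes, stood out among the NK factors. It was 73.8 CPM (58.1 to 92.3) in T and 1370 CPM (1251 to 1498) in NK cells, a log2 ratio of -4.22 (-4.58 to -3.86). Irf8 was found in 53 of 54 NK cells (98.1%, 90.1 to 99.95) with a median of 7 UMIs, and in 21.4% of T cells, or in 82.3% and 8.42% after thinning. Of the other classes, 63.1% of B-lineage cells and 2.99% of granulocytic cells held it. Of 8 compared NK factors, Eomes, Id2 and Irf8 were called higher in NK cells and 0 in T cells (median log2 ratio -0.87). A single NK cell also held 17 Siglech, 29 Ly6d, 10 Ccr9 and 11 Tcf4 UMIs, which are markers of plasmacytoid dendritic cells. This cell held 16 Irf8 UMIs and 1 Gzma UMI, and it passed the gate with 1 receptor UMI and 5 Nkg7 UMIs.

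Of the adaptors that couple NK receptors to Syk-family kinases, Tyrobp and Fcer1g were close to universal in NK cells. Tyrobp (DAP12) was 1587 CPM (1458 to 1723) in NK and 197 CPM (171 to 226) in T cells, a log2 ratio of -3.01 (-3.25 to -2.78), and Fcer1g, the common Fc receptor gamma chain, was 1179 CPM (1069 to 1298) and 214 CPM (186 to 244), a log2 ratio of -2.47 (-2.71 to -2.23). Each was found in 53 of 54 NK cells, and 52 held both, against 19.6% of T cells for Tyrobp and 29.8% for Fcer1g. After thinning, Tyrobp was found in 86.3% of NK and 12.3% of T cells and Fcer1g in 82.1% and 17.7%. Hcst (DAP10), which couples the NKG2D receptor, was not called, at 312 CPM (256 to 375) in NK and 325 CPM (291 to 362) in T cells. These 2 adaptors were the only genes called among the 5 compared genes of this list, which also holds the kinase Syk (median log2 ratio -1.73). Both are also high in granulocytes (Tyrobp in 99.5% and Fcer1g in 99.3% of granulocytic cells), while the 10 neutrophil markers summed to 955 CPM (856 to 1062) in NK and 1021 CPM (960.5 to 1085) in T cells. The part of such RNA in the result was not tested.

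Most compared lectin-like receptors of the NK gene complex were higher in NK cells. This stretch of chromosome 6 (128609227 to 130386874 on mm10, 1.78 Mb) holds 49 annotated genes in the matrix, of which 18 outside the gates could be compared. Of these, 11 were higher in NK cells and 0 in T cells. Klra4 (Ly49D), an activating receptor, was 312 CPM (256 to 375) in NK and 7.77 CPM (3.35 to 15.3) in T cells, a log2 ratio of -5.33 (-6.57 to -4.30). Klra7 (Ly49G), an inhibitory receptor, was 362 CPM (302 to 430.4) and 37.9 CPM (26.9 to 51.8), a log2 ratio of -3.26 (-3.81 to -2.73). Klra8 (Ly49H), the activating receptor for a cytomegalovirus protein, was 143 CPM (107 to 188) and 2.91 CPM (0.601 to 8.51), with 51 and 3 UMIs, and 35.3% of its NK UMIs lay in 1 cell. Klra8 was 93.4 CPM in NK cells without the 18 cells and stayed called. Among the invariant receptors, Klrd1 (CD94) was 373.5 CPM (313 to 443) in NK and 113 CPM (93.05 to 135) in T cells, Klre1 was 365 CPM (305 to 434) and 62.1 CPM (47.8 to 79.3), and Klrk1 (NKG2D), which binds stress-induced ligands, was 306 CPM (251 to 369) and 80.6 CPM (64.2 to 99.9). Klrc1 (NKG2A), the inhibitory partner of CD94, was 115 CPM (82.6 to 156) in NK and 66.0 CPM (51.3 to 83.7) in T cells and was not called. Klra5 and Klra6 ran the other way without being called, with 29 and 13 UMIs in T cells and 4 and 0 in NK cells. The Ly49 genes are close copies of each other, so the split of reads between them is uncertain.

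Ly49 receptors were spread unevenly over NK cells. A UMI of 0 Klra genes was found in 10 of 54 NK cells, 1 gene in 11, 2 genes in 13, 3 genes in 16, 4 genes in 3 and 5 genes in 1 cell. In T cells 129 of 168 held none, 20 held 1 gene, 14 held 2 and 5 held 3. Klra7 was found in 55.6% of NK cells (41.4 to 69.1), Klra4 in 46.3% (32.6 to 60.4), Klra1 in 31.5% (19.5 to 45.6), Klra8 in 22.2% (12.04 to 35.6), Klra9 in 20.4% (10.6 to 33.5) and Klra3 in 9.26% (3.08 to 20.3). Each of these 6 genes was found in 0.0298% to 0.806% of B-lineage cells and in at most 0.114% of granulocytic cells. A gene at a few UMIs per cell is often missed and reads of close copies can be assigned to the wrong gene, so the number of receptors per cell is uncertain in both directions.

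**Figure D3:**
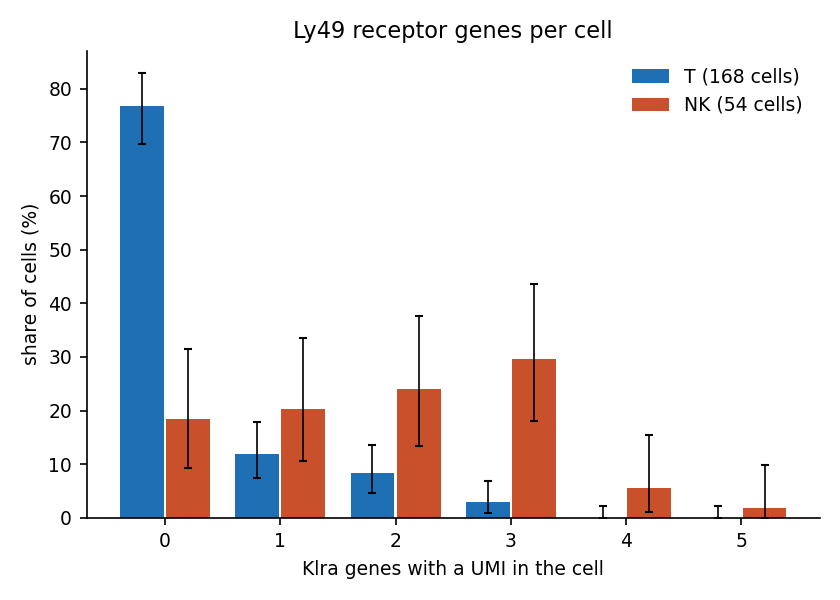
Share of cells (vertical axis, percent) by the number of Klra genes with at least 1 UMI in the cell (horizontal axis), for 168 T cells (blue) and 54 NK cells (orange), with exact binomial 95% intervals as error bars. Of T cells 76.8% held none, against 18.5% of NK cells, in which 3 genes was the most frequent number at 29.6%.

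Granule genes were higher in NK cells or not called. Gzma, the tryptase-like granzyme A, was 3766 CPM (3567 to 3973) in NK and 112 CPM (92.2 to 134) in T cells, a log2 ratio of -5.08 (-5.36 to -4.80), and lies on chromosome 13 (113093825 to 113100981 on mm10). It was found in 43 of 54 NK cells (79.6%, 66.5 to 89.4) with a median of 18.5 and a maximum of 120 UMIs, and in 15 of 168 T cells (8.93%), against 0.597% of B-lineage and 0.303% of granulocytic cells. After thinning the shares were 71.7% of NK and 6.00% of T cells, so that NK cells without any Gzma UMI, 11 in all, were a minority. Prf1, the pore-forming perforin, was 267 CPM (216 to 326) in NK and 18.4 CPM (11.1 to 28.8) in T cells, and Gzmb, which cleaves caspases, was 337 CPM (279 to 403) and 49.5 CPM (36.9 to 65.1). Together in a cell, Gzma and Prf1 were found in 34 of 54 NK cells, Gzma and Gzmb in 27 and Gzmb and Prf1 in 24. Serpinb9 and Serpinb6b, which protect the killer from its own granzymes, were also higher in NK cells, with log2 ratios of -2.37 (-2.72 to -2.01) and -2.51 (-2.85 to -2.18). The granule cathepsin Ctsw was 258 CPM in NK and 134 CPM in T cells and Fas ligand (Fasl) 132 and 70.9 CPM, both short of the limit, and the granule proteoglycan Srgn was 1488 and 1323 CPM. In all, 5 of 12 compared granule and death ligand genes were higher in NK cells and 0 in T cells (median log2 ratio -0.92).

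Ccl5 and Xcl1 were abundant in both classes, and other chemokines were sparse in T cells. Ccl5 was 7602 CPM (7318 to 7894) in NK and 3358 CPM (3247 to 3472) in T cells, a log2 ratio of -1.18 (-1.25 to -1.11). The spread over cells differed, with a median of 44.5 UMIs in NK cells, of which 53 of 54 held it, and a median of 3 UMIs in T cells with a maximum of 136. Xcl1, which draws cross-presenting dendritic cells, was 969 CPM (869 to 1077) in NK and 432 CPM (393 to 474) in T cells and did not clear the limit, at a log2 ratio of -1.17 (-1.37 to -0.96), with 1 NK cell holding 8.12% of its NK UMIs. Ccl3 was 75.8 CPM (49.97 to 110) and 8.74 CPM (3.99 to 16.6), with 1 NK cell holding 37.0% of its NK UMIs. Ccl4 was 183 CPM in NK and 68.9 CPM in T cells and was called only without the 18 cells, at 206 and 52.4 CPM (log2 ratio -1.98, -2.58 to -1.39). Tgfb1 was 503 CPM (432 to 582) in NK and 182 CPM (156 to 210) in T cells, a log2 ratio of -1.47 (-1.77 to -1.17). Ifng (interferon gamma) was sparse in both, at 59.0 CPM (36.5 to 90.1) with 52.4% of its UMIs in 1 NK cell, and 16.5 CPM (9.61 to 26.4) in T cells. Tnfsf8 (CD30 ligand) was the single cytokine higher in T cells, with 36 UMIs against 0, 4.15-fold the floor (exact lower bound log2 1.68). Of 9 compared cytokines and chemokines, 3 were called higher in NK cells and 1 in T cells (median log2 ratio -1.18), and without the 18 cells 4 and 1 of 8.

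Cytokine receptors and homing receptors pointed both ways. Il7r, the receptor for the survival factor of naive and memory T cells, was 224 CPM (196 to 255) in T and 56.2 CPM (34.3 to 86.7) in NK cells, a log2 ratio of 2.00 (1.34 to 2.74). Il6ra was 41.7 CPM in T and 2.81 CPM in NK cells, with 43 UMIs against 1, a log2 ratio of 3.89 (1.34 to 9.23). Il2rb, the beta chain shared by the receptors for interleukins 2 and 15, was found in 100% of NK cells and 74.4% of T cells, at 1005 CPM (904 to 1115) and 417 CPM (379 to 459), and its call in NK cells was lost without the 18 cells (log2 -1.11). Il18rap was higher in NK cells, at 174 CPM (133 to 223) against 37.9 (26.9 to 51.8). Ccr7 and S1pr1, which guide cells into lymph nodes and back into blood, were higher in T cells, at 247 CPM (217 to 279) and 182.5 CPM (157 to 210.5) against 70.2 (45.4 to 104) and 33.7 (17.4 to 58.9) in NK cells. Both are also B-lineage transcripts, found in 37.99% and 33.4% of those cells. Ccr2, Cxcr4 and Itga4 were among the homing genes called higher in NK cells over all cells, and these 3 fell just short of the limit without the 18 cells, at log2 ratios of -1.53, -1.27 and -1.29 against -1.67, -1.35 and -1.37. Cxcr4, the receptor for the marrow retention factor Cxcl12, was 576 CPM (500 to 660) in NK and 226 CPM (198 to 257) in T cells. Of 13 compared cytokine receptors, 3 were higher in T cells (Il7r, Il6ra and Ifngr2) and 2 in NK cells (median log2 ratio -0.38), and of 16 homing genes 2 were higher in T and 5 in NK cells (median -0.58). Without the 18 cells Ifngr2 kept a log2 ratio of 2.91 with an interval (0.96 to 6.01) that no longer cleared 2-fold, which left 2 cytokine receptors higher in T and 1 in NK cells. The homing genes were then 2 and 3, the latter with the integrin Itgb1 newly called (log2 ratio -1.39).

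**Figure D4:**
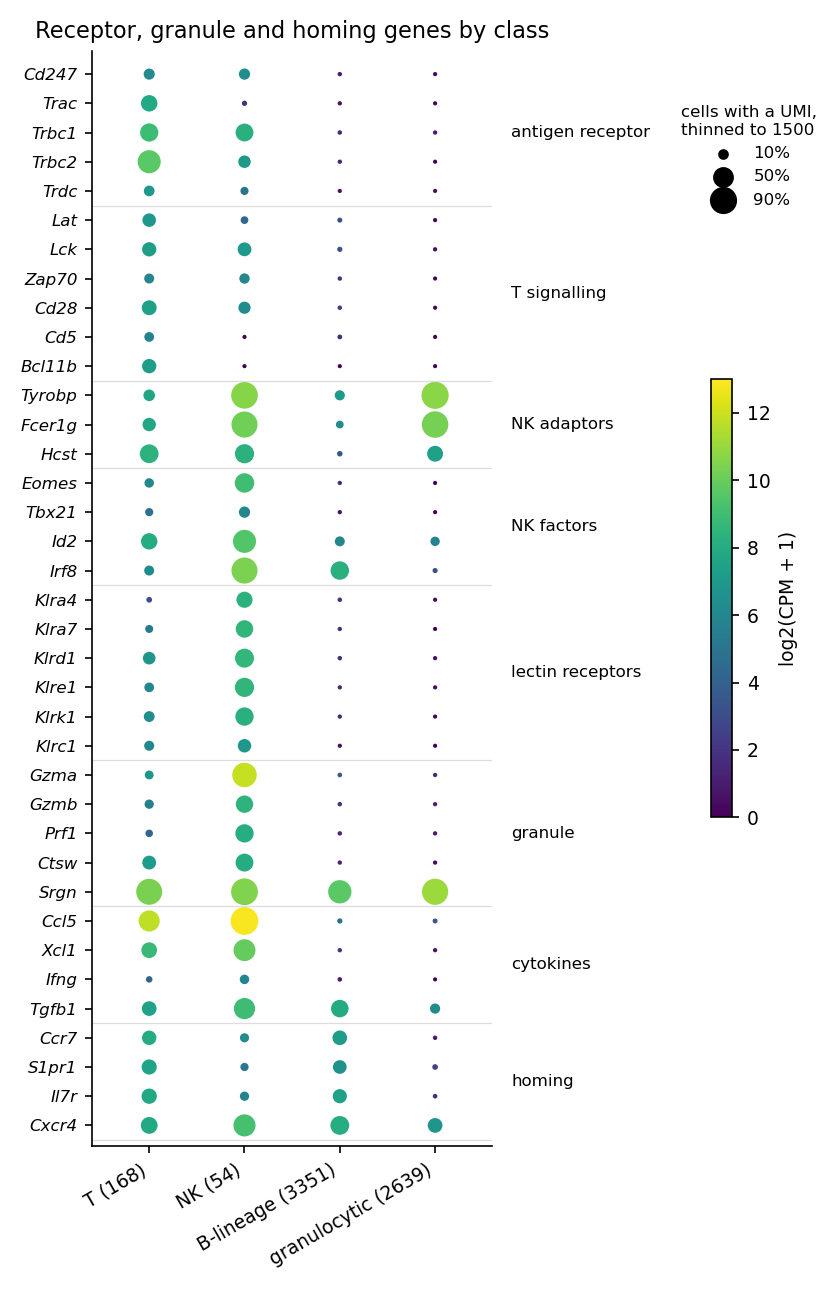
Genes of the receptor, adaptor, factor, granule, cytokine and homing groups (rows) in T, NK, B-lineage and granulocytic cells (columns, with cell numbers). Dot area gives the percentage of cells with a UMI after thinning to 1500 UMIs per cell, and colour gives log2(CPM + 1) on all UMIs. Dots for Trac and Bcl11b are large in the T column only, Trbc1 and Lck have dots of similar size in T and NK cells, Gzma is brightest in NK cells, and Tyrobp and Fcer1g have large dots in NK and granulocytic cells.

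Over all genes, those with the interval furthest from 2-fold were named, among genes found in at least 20% of the cells of the higher class. Over T cells without the 18, the 10 highest were Ifi27l2a, Ramp3, Trac, Bcl11b, Cd8b1, Gm8369, Cd5, Cd6, Trbc2 and Dusp10. Ifi27l2a, an interferon-inducible gene, was 433 CPM in T and 6.44 CPM in NK cells, a log2 ratio of 6.07 (4.21 to 9.12), and with all cells 358 and 5.62 CPM. It is not a T-lineage gene, since 35.5% of B-lineage and 19.1% of granulocytic cells held it against 39.3% of T and 3.70% of NK cells. Ramp3, which modifies receptors for calcitonin-family peptides, was 163 CPM (139 to 190) in T and 2.81 CPM (0.0711 to 15.6) in NK cells with all cells included. It was found in 41.1% of T cells, 1.85% of NK cells, 0.686% of B-lineage and 0.531% of granulocytic cells. With all cells included, Sparc and Lyz2 entered this list, and 58.3% and 53.9% of their T-cell UMIs came from 1 cell each.

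The 10 highest in NK cells without the 18 cells were Gzma, Klrb1b, Klra4, Irf8, Tyrobp, Car2, Adamts14, Prf1, Klrb1a and Klra7. Car2, a carbonic anhydrase that is abundant in red cell precursors, was 556 CPM in NK and 267 CPM in T cells over all cells and was not called. Without the 18 cells it was 483 CPM in NK and 43.4 CPM in T cells, a log2 ratio of -3.48 (-4.06 to -2.93). Car2 is itself among the 7 erythroid markers that set these cells apart. Leaving out only the cells with erythroid RNA, it was found in 45 of 51 NK cells (88.2%, 76.1 to 95.6) and 20 of 160 T cells (12.5%, 7.81 to 18.6). In the same comparison 14.6% of B-lineage and 7.89% of granulocytic cells held Car2. The red cell gene Alas2 was found in 3.92% of these NK cells and in 2.50% of T cells. Adamts14, a procollagen protease, was 74.1 CPM in NK and 2.55 CPM in T cells, with 23 and 2 UMIs, a log2 ratio of -4.86 (-7.99 to -2.84).

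The same motifs were counted in the promoters of the called genes. Of the 57 genes higher in T cells 37 had a promoter in the RefSeq table, of which 4 held the Runx letters, 1 the T-box, 0 the TCF/LEF and 7 the Ets letters. Of the 90 genes higher in NK cells 68 had one, of which 11 held the Runx letters, 0 the T-box, 0 the TCF/LEF and 7 the Ets letters. For Runx these are 10.8% (3.03 to 25.4) and 16.2% (8.36 to 27.1), with the 14.2% of all promoters inside both intervals. For Ets they are 18.9% (7.96 to 35.2) and 10.3% (4.24 to 20.1), against 7.80% of all promoters and 8.47% of the promoters of all compared genes.

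T cells divided by coreceptor, but most showed neither. A Cd8a or Cd8b1 UMI without Cd4 was found in 52 of 168 T cells (31.0%, 24.1 to 38.5), called CD8 type here, and a Cd4 UMI without Cd8 in 15 (8.93%, 5.08 to 14.3), called CD4 type. Both were found in 1 cell and neither in 100 cells (59.5%, 51.7 to 67.0). These shares follow depth, since thinning every cell to 1500 UMIs gave 13.96% CD8 type and 4.28% CD4 type. A beta or alpha constant region was found in 162 of 168 T cells (96.4%). Of the 100 cells without a coreceptor UMI, 28 held Trdc, against 2 of 52 CD8-type and 0 of 15 CD4-type cells.

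Gamma-delta transcripts mostly appeared beside beta transcripts. A set of 3 T cells (1.79%, 0.370 to 5.13) held Trdc with no Trbc1 or Trbc2 UMI, called gamma-delta type (3.05% after thinning), and 27 (16.1%) held Trdc with a Trbc UMI. A gamma constant region was found in 28 T cells (16.7%, 11.4 to 23.2), and beside Trdc in 17 (10.1%, 6.01 to 15.7), so the share of gamma-delta cells depends on the transcripts asked for. Of those 27, Trac was found in 6, Fcer1g in 17, Ccl5 in 23 and Il2rb in 25. Trdc reached 130 CPM in T cells, and its UMIs were spread over cells, with the top cell holding 11.2%. In a set that overlaps these, 10 T cells (5.95%, 2.89 to 10.7) held an NK receptor of the gate with at least 2 Nkg7 UMIs, and 4 of them held Trdc. All 10 held Ccl5 and Il2rb while 8 held Fcer1g and 1 held Gzma. Most of these cells thus shared Ccl5, Il2rb and Fcer1g with NK cells, and few shared Gzma.

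CD8-type and CD4-type cells, with median depths of 5207.5 and 4540 UMIs, differed in a small set of genes. Over all cells, 40 of 2706 compared genes were higher in CD8-type cells (1.48%) and 54 in CD4-type cells (2%), and without the cells with other RNA (47 and 14 cells left) 6 of 2041 (0.294%) and 29 (1.42%), of which 6 and 25 were among the former. Ccl5 was higher in CD8-type cells at 3765 CPM (3575 to 3962) against 385 CPM (254 to 560), a log2 ratio of 3.29 (2.74 to 3.90). Gzma was 195 CPM in CD8-type and 14.3 CPM in CD4-type cells, with 76 UMIs in 8 cells against 1 UMI, a log2 ratio of 3.77 (1.25 to 9.09). Maf, a factor of helper and regulatory T cells, was higher in CD4-type cells at 756 CPM (566 to 989) against 12.8 CPM (4.16 to 29.9) and was found in 13 of 15 against 4 of 52 cells. The costimulatory receptor Icos was found in 13 of 15 CD4-type and 14 of 52 CD8-type cells, with levels of 570 CPM against 61.5 CPM (log2 ratio -3.21, -4.01 to -2.45), and Tnfrsf4 (OX40) was 485 CPM against 7.68 CPM. Rora was found in 13 of 15 CD4-type and 22 of 52 CD8-type cells. Tbc1d4, Eea1 and Tnfsf8 were also among the highest in CD4-type cells, with 53.1% of the 49 Eea1 UMIs in 1 cell, and Npm1, Tubb5, Mybbp1a and Stmn1 among the highest in CD8-type cells without the cells with other RNA. Hbb-bs, Hbb-bt, Hba-a1, Hba-a2, Alas2 and Car2 were also called higher in CD4-type cells over all cells, where 1 of the 15 cells carried erythroid RNA.

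Naive and effector transcripts were found mostly in different T cells. Ccr7 was found in 57 T cells and Ccl5 in 95, both in 18 and neither in 34. Among the 57 cells with Ccr7, Lef1 was found in 43 (75.4%), S1pr1 in 42 (73.7%) and Il2rb in 36 (63.2%), and among the 95 with Ccl5, Lef1 was found in 33 (34.7%), S1pr1 in 36 (37.9%) and Il2rb in 85 (89.5%). CD8-type cells held both kinds, with Ccr7 in 29 and Ccl5 in 28 of 52, whereas 3 and 6 of 15 CD4-type cells held them. Of the 8 naive T genes compared between T and NK cells, 5 were higher in T cells (Ccr7, S1pr1, Il7r, Dapl1 and Igfbp4) and 1 in NK cells, with a median log2 ratio of 1.90. Dapl1 had 53.1% of its 32 T-cell UMIs in 1 cell, and Igfbp4 lost its call without the 18 cells.

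**Figure D5:**
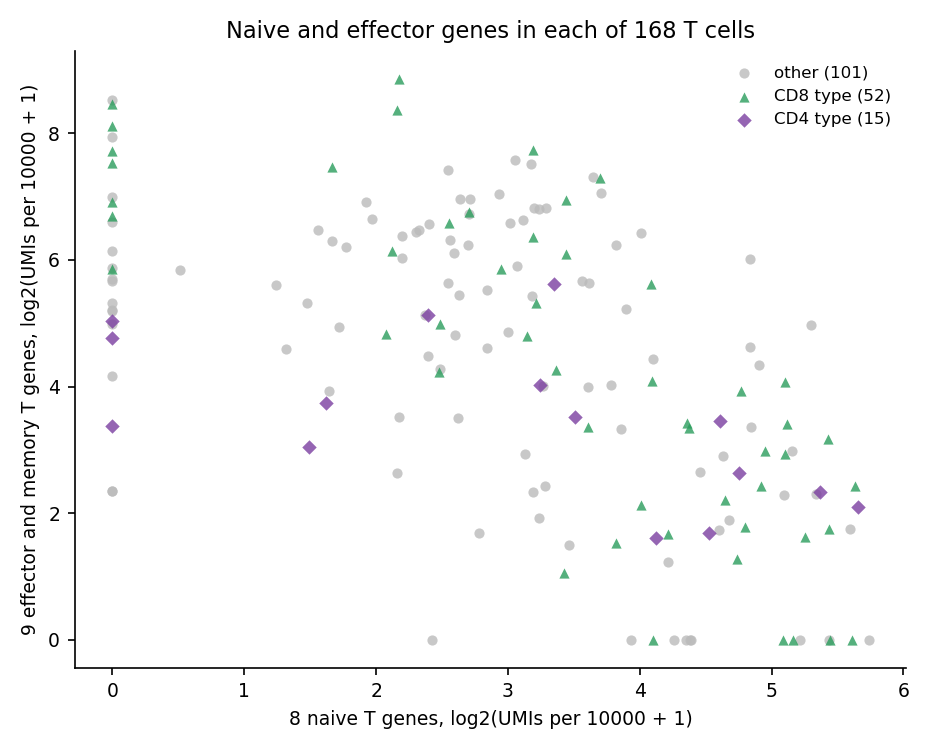
Summed level of 8 naive T genes (horizontal axis) against 9 effector and memory T genes (vertical axis) in each of 168 T cells, both as log2 of UMIs per 10000 plus 1, with 52 CD8-type cells (triangles), 15 CD4-type cells (diamonds) and 101 other cells (circles). Cells furthest to the right lie low and cells at the top lie to the left, the naive score reaching 52.3 per 10000 and the effector score 464, and CD8-type cells lie at both ends.

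The genes of the regulatory T list were found in 7 (Foxp3) to 89 (Tnfrsf18) of the 168 T cells. Foxp3, the defining factor, had 10 UMIs in 7 T cells (4.17%, 1.69 to 8.40) and 0 in NK, B-lineage and granulocytic cells, and 6 of these 7 cells held Ikzf2 (Helios) and 0 held Ccl5. Tnfrsf4 and Izumo1r (folate receptor 4) had 60 and 40 UMIs in T cells and 0 in NK cells, 6.91-fold and 4.61-fold the floor (exact lower bounds log2 2.45 and 1.84), and were the 2 of 5 compared regulatory genes that were called. Tnfrsf18 (GITR) was found in 53.0% of T and 48.1% of NK cells, Ikzf2 in 50.6% and 27.8% and Ctla4 in 16.7% and 3.70%, and 131 of 168 T cells held at least 1 of the 7 genes. Rag1, Rag2 and Ptcra, genes of thymocytes that rearrange their receptors, had 0 UMIs in T and NK cells, which allows up to 1.79% of T cells with a UMI by the floor of 3 counts and 2.17% by the exact interval. Il17a was found in 1 T cell with 3 UMIs.

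NK cell maturation is read from Cd27, held by less mature cells, and Itgam (CD11b), held by more mature ones, and both were found. Cd27 was found in 24 of 54 NK cells (44.4%, 30.9 to 58.6) and Itgam in 12 (22.2%, 12.04 to 35.6), against 2.39% and 12.5% of B-lineage cells. Cd27 alone was found in 20 cells, both in 4, Itgam alone in 8 and neither in 22. After thinning to 1500 UMIs the shares were 16.46% for Cd27 and 10.9% for Itgam, so that the cells with neither cannot be read as lacking both. Neither gene is particular to NK cells. Cd27 was found in 52.4% of T cells, and Itgam, after thinning, in 46.9% of granulocytic cells. The part of granulocyte RNA in the Itgam UMIs of NK cells was not tested. Of the markers of late stages, Klrg1 was found in 8 NK cells (14.8%, 6.62 to 27.1), Cx3cr1 in 1 and S1pr5, the receptor that lets NK cells leave marrow, in 0, which allows up to 5.56% by the floor and 6.603% by the exact interval. Eomes was found in 36 (66.7%) and Tbx21 in 16 (29.6%), with both in 10. Il7r, found on less mature NK cells and innate lymphoid cells, was found in 7, and Cxcr6 and Itga1, marks of tissue-resident cells in other organs, in 2 and 1. Among type 2 innate lymphoid genes, Areg was called higher in NK cells with 80.0% of its 20 UMIs in 1 cell, and Gata3 was found in 27 of the 54 NK cells.

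Dividing cells were present in both classes. At least 2 of Top2a, Mki67 and Birc5 were found in 12 T cells (7.14%, 3.745 to 12.1) and 7 NK cells (12.96%, 5.37 to 24.9), and after thinning in 2.46% and 8.35%. The unthinned shares of B-lineage and granulocytic cells were 18.6% and 26.3%. Without the cells with other RNA the numbers were 6 of 153 T cells (3.92%) and 7 of 51 NK cells (13.7%, 5.70 to 26.3), with overlapping intervals. Of 8 compared cell-cycle genes, 2 (Top2a and Stmn1) were called higher in NK cells over all cells, and Mki67 and Cdk1 were added without the 18 cells, while 0 were higher in T cells. Top2a was 216 CPM (171 to 270) in NK and 71.8 CPM (56.4 to 90.2) in T cells, and 1 NK cell held 29.9% of its NK UMIs.

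Transcripts of other cell types were checked in both classes by whole lists. Of 8 compared neutrophil markers, 1 (Mpo) was higher in T cells over all cells and none was called without the 18. Of 6 skeletal markers 5 were higher in T cells, and none of the 2 still compared was called without the 18 cells. Of 2 compared B-lineage markers Cd74 was called, with 206 UMIs in T and 4 in NK cells and 89.3% of its T-cell UMIs in 1 cell. Basophil and progenitor markers had too few UMIs to be compared. Of 3 compared plasmacytoid dendritic markers, Ly6d was called higher in NK cells, with 29 of its 30 NK UMIs in the cell described above. Without the 18 cells Tcf4 was called as well, at 96.7 CPM in NK and 11.5 CPM in T cells (log2 ratio -3.07) and in 33.3% of NK cells, with 11 of its 30 NK UMIs in that same cell. None of 7 compared erythroid markers was called over all cells, and Car2 was the 1 of 5 called without the 18. Of 2 compared monocyte markers Lyz2 was higher in T cells over all cells and not without the 18, and the same held for Fos among 10 immediate-early genes. Of 11 compared other NK surface receptors, Itga2 and Cd7 were higher in NK cells and Ly6c2 in T cells, and of 8 effector and memory genes 4 were higher in NK cells and 1 in T cells. Without the 18 cells Fcgr3 and Itgam joined the former, for 4 in NK cells, and 2 effector and memory genes (Ccl5 and Eomes) were higher in NK cells.

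Lineage reporter transcripts were measured beside the classes that should lack them. WPRE, the viral element at the end of the tdTomato transcript, was found in 48 of 168 T cells (28.6%, 21.9 to 36.0) and 20 of 54 NK cells (37.0%, 24.3 to 51.3), against 18.4% of B-lineage and 31.3% of granulocytic cells. Above 14 WPRE UMIs lay 2 T cells, and the T cells with skeletal or monocyte RNA held 146 of the 197 WPRE UMIs of T cells. The highest NK cell held 3 WPRE UMIs. EGFP was found in 3 T cells with 79 UMIs in all, each of them with skeletal or monocyte RNA, and in 0 NK cells, and Cre was found in 0 T and 0 NK cells.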

How the data were processed

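Cells from tibiae of 3 pooled mice were profiled with 10x Genomics droplets. The authors deposited UMI counts per gene and barcode as raw counts, made with Cell Ranger 3.1.0 on mm10 per the submitters' processing notes, which also name Seurat 3, and a second count matrix of reporter sequences. The 8 labelled samples are 1 group and share these matrices. Cells were chosen by the thresholds given above, with no cell removed as a doublet, and Scrublet in scanpy 1.11.5 (6% expected) was run as an alternative. Members and gene lists were chosen with earlier results of these data known. UMIs were summed per class (Python 3.11.15, NumPy 2.4.6, pandas 2.3.3, SciPy 1.17.1). Exact Poisson, conditional and Clopper-Pearson 95% intervals were computed, and no test was made. Shares were also taken after thinning cells to 1500 UMIs (100 draws). The code was tested on simulated data. Named genes were those of 31 gene lists, the 10 genes highest in each class and the 5 highest in each T subset, by the bound of the interval nearest to 1, among genes found in at least 20% of the higher class. Coordinates are those of GENCODE M21 on GRCm38, which matched 30934 of 31053 gene IDs, and promoters are RefSeq's. Some genes are not reported here, and counts over lists include them.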

Additional observations from a re-analysis of the deposited data

How the results depend on the processing

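No paired analysis was possible because all labelled samples share 1 matrix of pooled animals, and no replicate could be left out for the same reason. The largest changes came from depth and from cells with other RNA. A floor of 1600 detected genes left 71 T and 30 NK cells and 49 genes higher in NK cells. Thinning to 1500 UMIs lowered the CD4-type share to 4.28%, the CD8-type share to 13.96%, Itgam to 10.9% and Cd27 to 16.46%, and raised the gamma-delta share to 3.05%. A minimum of 50 UMIs per gene left 107 genes higher in T and 50 higher in NK cells. Leaving out cells with skeletal or monocyte RNA left 63 genes higher in T cells, and leaving out erythroid RNA as well left 57, with 6 higher in CD8-type and 29 in CD4-type cells. Acan turned to a log2 ratio of -2.86 and -2.92 in these settings, with 1 UMI in T and 3 in NK cells. Of 73 named genes that were called, 44 stayed within their interval in all 12 settings that gave them a value, with a class at 0 UMIs set to the floor of 3 counts. Weighing each cell the same gave no value for genes at 0 in 1 class. The median log2 ratio of all genes was -0.065, and centring on it kept both counts of calls within 1.5 times. Depth limits every statement on genes at 0 UMIs in the 54 NK cells, and the cause of these changes was not tested.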

Other observations

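Sex-linked transcripts showed that the pool held cells with and without Y-linked RNA. Xist without a Y-linked UMI (Ddx3y, Eif2s3y, Kdm5d and Uty) was found in 91 of 168 T cells (54.2%, 46.3 to 61.9) and 30 of 54 NK cells (55.6%, 41.4 to 69.1), and in 62.5% of B-lineage and 30.4% of granulocytic cells. Y-linked UMIs without Xist were found in 35 T cells (20.8%, 15.0 to 27.8) and 12 NK cells (22.2%, 12.04 to 35.6). Both were found together in 6 T and 2 NK cells, and neither in 36 and 10. With 3 animals whose sexes the sources used here do not give, these cells were not assigned to animals.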
